A study of Mus musculus with 28 samples.

Results

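DNase I hypersensitive sites (DHSs) open in WT and not called in Tgfbr1 KO CD4+ T cells were collected from 4 DNase-seq peak lists. The lists came from WT and from KO cells, each cultured with medium (control) or with TGF-β + IL-4, and their peaks were merged where they shared at least 1 bp, which gave 50176 merged regions. A merged region was kept when it held a peak of both WT lists and of no KO list, and 2659 of the 50176 regions met this rule. These 2659 DHSs, called WT-only below, were therefore selected on the peak calls themselves, and their presence in WT and absence from KO are the selection and not a finding. Each list came from 1 library, so the region sets carry no replicate error, and the depth of the libraries is unknown.

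Both genotypes carried floxed alleles of Tgfbr1, which encodes the type I TGF-β receptor, and an inducible Ert2-cre on a C57BL/6 background. WT mice received oil and Tgfbr1 KO mice received tamoxifen, so deletion and tamoxifen cannot be told apart, and this Cre is not restricted to T cells. Naive CD4+ CD62L+ T cells from the spleen and lymph nodes of young adult mice were stimulated with anti-CD3 and anti-CD28 in medium alone (control) or with cytokine. The 4 DNase-seq libraries are labelled mouse 3 of each genotype (WT3, oil-treated, and KO3, tamoxifen-treated). RNA-seq of the same design covered 24 libraries, headed as 3 mice per genotype and 4 cultures per mouse (medium alone, either cytokine alone, or both).

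A DHS marks DNA that is free enough of nucleosomes for DNase I to cut, as at active promoters and enhancers. TGF-β binds the type II receptor Tgfbr2, which recruits and activates Tgfbr1, and the activated receptor phosphorylates Smad2 and Smad3. These enter the nucleus with Smad4 and bind short CAGAC elements, usually beside sites of partner factors such as AP-1 and RUNX proteins. In T cells TGF-β restrains effector programs, induces the integrin Itgae, and together with IL-4 directs cells to produce IL-9.

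The sequence around 9 WT-only DHSs is given first, because the later sections return to these regions. They are the strongest WT-only DHS (in an intron of Itgb2), the one with a Smad palindrome in an intron of Ppp2r5e, the strongest intergenic one (upstream of Fam102b), 5 nearest to genes described below (Itgae, with 2, Pmepa1, Icos and Slamf6), and the strongest promoter (Zfp772). Each is 201 bp of the mm9 plus strand centred on the WT control summit. Capitals mark matches on either strand to the SMAD core CAGAC, the SMAD palindrome GTCTAGAC, the AP-1 letters TGANTCA and the RUNX letters TGTGGT, and capitals that run together hold overlapping or adjoining matches.
Itgb2 intron (chr10:77019458-77019658): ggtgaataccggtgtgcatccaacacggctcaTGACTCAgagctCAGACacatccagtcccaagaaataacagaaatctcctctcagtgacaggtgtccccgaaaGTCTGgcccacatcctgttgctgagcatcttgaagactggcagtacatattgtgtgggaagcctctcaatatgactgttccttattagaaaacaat
Ppp2r5e intron (chr12:76645318-76645518): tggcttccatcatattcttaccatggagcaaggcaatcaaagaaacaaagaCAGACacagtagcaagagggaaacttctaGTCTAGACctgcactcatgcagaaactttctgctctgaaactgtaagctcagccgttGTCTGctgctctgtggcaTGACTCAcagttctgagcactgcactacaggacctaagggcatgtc
Fam102b upstream (chr3:108866007-108866207): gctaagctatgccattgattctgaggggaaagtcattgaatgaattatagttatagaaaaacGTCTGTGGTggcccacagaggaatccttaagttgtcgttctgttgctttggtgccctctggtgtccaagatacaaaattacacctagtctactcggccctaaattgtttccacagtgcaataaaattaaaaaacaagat
Itgae upstream (chr11:72897930-72898130): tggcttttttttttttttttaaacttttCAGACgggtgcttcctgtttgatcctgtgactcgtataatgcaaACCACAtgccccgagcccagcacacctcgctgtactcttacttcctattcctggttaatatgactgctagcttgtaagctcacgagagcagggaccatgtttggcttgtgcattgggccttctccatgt
Itgae intron (chr11:72908268-72908468): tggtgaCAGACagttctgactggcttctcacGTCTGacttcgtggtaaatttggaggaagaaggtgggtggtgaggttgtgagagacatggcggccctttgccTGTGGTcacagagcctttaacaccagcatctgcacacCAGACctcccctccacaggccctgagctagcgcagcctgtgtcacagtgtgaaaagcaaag
Pmepa1 intron (chr2:173090371-173090571): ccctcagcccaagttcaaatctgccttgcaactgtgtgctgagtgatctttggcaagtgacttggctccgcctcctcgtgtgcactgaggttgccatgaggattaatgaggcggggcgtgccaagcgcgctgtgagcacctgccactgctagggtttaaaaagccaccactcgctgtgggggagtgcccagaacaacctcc
Icos downstream (chr1:61125108-61125308): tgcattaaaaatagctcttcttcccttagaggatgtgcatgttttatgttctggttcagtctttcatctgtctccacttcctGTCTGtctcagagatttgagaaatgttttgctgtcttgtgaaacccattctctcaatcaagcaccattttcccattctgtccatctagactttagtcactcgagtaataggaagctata
Slamf6 intron (chr1:173869169-173869369): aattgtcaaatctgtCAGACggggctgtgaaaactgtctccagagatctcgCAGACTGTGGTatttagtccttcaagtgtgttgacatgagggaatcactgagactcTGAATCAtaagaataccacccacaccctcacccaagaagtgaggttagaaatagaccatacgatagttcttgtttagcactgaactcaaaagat
Zfp772 promoter (chr7:7162644-7162844): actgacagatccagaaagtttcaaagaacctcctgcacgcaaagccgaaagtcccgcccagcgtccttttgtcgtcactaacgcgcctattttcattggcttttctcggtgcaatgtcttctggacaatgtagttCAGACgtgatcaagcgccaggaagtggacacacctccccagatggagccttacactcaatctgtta
The 8 stretches other than that of Pmepa1 held 1 to 4 such matches, and the Pmepa1 stretch held 0. In the Ppp2r5e intron the palindrome lay 16 bp before the summit, with 2 further SMAD cores and an AP-1 match 58 bp after it. The Itgb2 intron held 2 SMAD cores, 54 bp before and 7 bp after the summit, and an AP-1 match 65 bp before it. In the Slamf6 intron and upstream of Fam102b a SMAD core and a RUNX match adjoined or overlapped. A match of letters is a description of the sequence and does not show that a factor was bound.

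The WT-only DHSs were weak members of their lists. Strength was read as the percentile rank of a peak by fold enrichment over local background, from 0 (strongest) to 100 within its own list. The median rank of the WT-only DHSs was 72.4 in the WT control list and 76.4 in the list of WT TGF-β + IL-4, and their median fold enrichments were 4.50 and 4.13, against 5.63 and 5.25 over all peaks of these lists. Only 1 of the 2659 lay in the strongest 25% of both lists and 95 lay in the strongest 50% of both, while 1987 (74.7%) lay in the weaker 50% of both. Their median width was 324 bp, and that of regions in all 4 lists was 507 bp. In 1768 WT-only DHSs (66.5%) the summits of the WT peaks lay within 50 bp of each other.

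**Figure D1:**
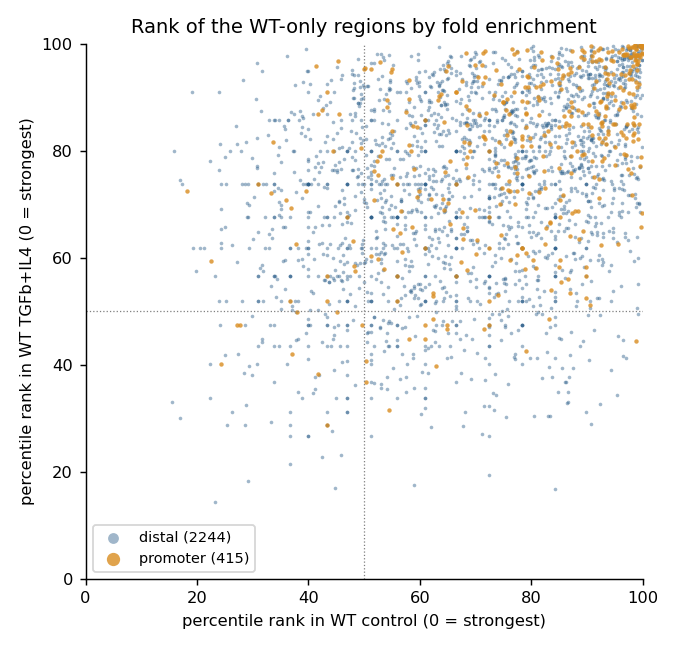
Percentile rank by fold enrichment in the control list (x axis) and in the TGF-β + IL-4 list (y axis) of each WT-only DHS, 0 being strongest, with 415 promoter and 2244 distal regions and dotted lines at rank 50. The points fill the weak corner, where 1987 of 2659 lie, and 1 lies under rank 25 on both axes.

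The share of DHSs that lacked a KO peak followed strength in WT cells. Of the 29752 regions in both WT lists, 8.94% were in no KO list. In 10 equal ranges of the mean rank in both WT lists, 0 of the 3612 strongest regions lacked a KO peak, then 0.0286%, 0.227%, 1.44%, 4.82%, 10.4%, 17.3%, 23.6%, 31.1% and, in the weakest range, 35.3%. In the opposite direction 184 regions were in both KO lists and in no WT list (KO-only), 0.783% of the 23513 regions in both KO lists. The KO lists were shorter, with 33665 peaks for control and 27145 for TGF-β + IL-4, against 44298 and 33880 in the WT lists. When only the 27145 peaks of lowest p were taken from every list, 763 regions were WT-only and 757 were KO-only, so the excess of WT-only over KO-only regions was not present at equal list length. Only 443 of the 2659 WT-only DHSs remained in that smaller set, and they included the 12 strongest.

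**Figure D2:**
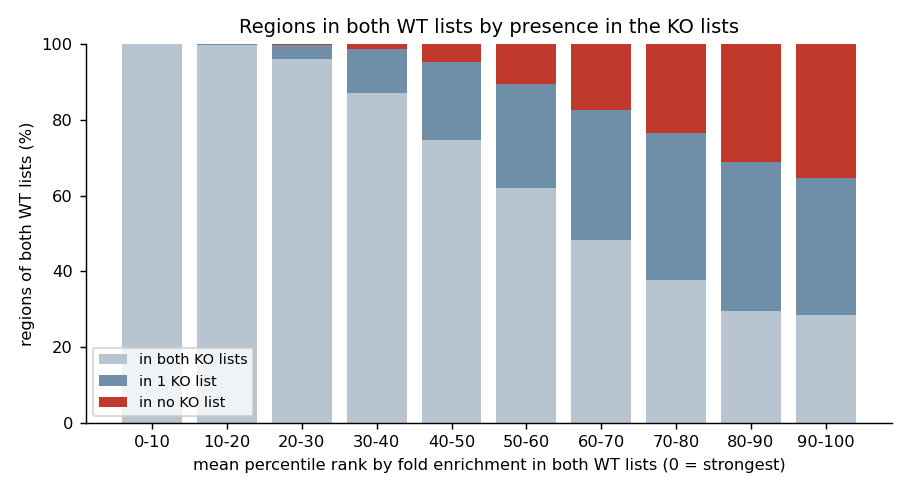
Regions in both WT lists, in 10 equal ranges of their mean percentile rank (x axis, 0 being strongest), with the percentage (y axis) found in both KO lists, in 1 KO list or in no KO list. Regions in no KO list are the WT-only DHSs, and their share runs from 0% in the strongest range to 35.3% in the weakest.

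At the edge of the rule, the WT-only DHSs closest to a KO peak were those in an intron of Msra (3 bp away), at the start of BC030336 (5 bp) and near the start of L3mbtl2 (6 bp). The regions left out by the smallest overlap with a KO peak lay at Dcun1d1 (5 bp of overlap), Ddc (8 bp) and nearest to Ezr (13 bp). Of all WT-only DHSs, 275 lay within 500 bp of a KO peak, and the median distance to one was 6556 bp. A region present in all 4 lists lay within 10000 bp of 1211 of them (45.5%).

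The 12 strongest WT-only DHSs by mean rank were 11 intronic or intergenic regions and 1 in an exon. The first lay in an intron of Itgb2, the β2 integrin chain of leukocytes (chr10:77019364-77019840, mm9), with fold enrichments of 8.09 in control and 8.90 in TGF-β + IL-4 cells. Its nearest start site of a gene in the RNA-seq table was that of Pttg1ip, 24907 bp away. It was followed by an intron of B230118H07Rik, with fold enrichments of 9.09 and 6.68. The next lay in an intron of Ppp2r5e, a regulatory subunit of protein phosphatase 2A (chr12:76645270-76645627), with 7.35 and 8.21. The exonic DHS lay in an untranslated part of Cx3cr1, the fractalkine receptor (chr9:119958505-119958935), with 9.38 and 6.40. The other 8 were nearest to Fam102b, Rngtt, Fggy, Gm1966, Sh3bgrl2, Commd8, Atp11b and Lrrc9, with fold enrichments between 5.87 and 8.46. The SMAD core was present within 100 bp of the summit in each of the 12 except those nearest to Commd8 and Lrrc9. All 12 stayed WT-only under each alternative way of joining, filtering or shortening the lists. Filtering and shortening remove weak peaks first, so for the strongest DHSs that outcome was largely fixed in advance.

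Promoters were a small part of the WT-only DHSs. A summit within 1000 bp of an annotated start site was counted as promoter, which held for 415 of the 2659 (15.6%), and 1193 (44.9%) lay in introns, 964 (36.3%) between genes and 87 (3.27%) in exons. Promoters made up 48.0% of regions in all 4 lists, 26.6% of the 184 KO-only regions and 29.6% of all merged regions. At equal list length the promoter share was 12.6% (95% Wilson interval 10.4 to 15.1) in the 763 WT-only and 25.2% (22.3 to 28.4) in the 757 KO-only regions. The promoters among the WT-only DHSs were also poorer in CpG, with a median observed to expected ratio of 0.480 against 0.809 at promoters in all 4 lists. The strongest promoter DHSs were those of Zfp772, a zinc finger gene (chr7:7162560-7162906, fold enrichments 7.95 and 5.87), of Dach2 on chromosome X (6.09 and 6.81) and of Pbrm1, a subunit of the PBAF chromatin remodeller (7.59 and 5.40). The next were those of 2010106G01Rik (7.51 and 5.40), of Ddx31 (6.61 and 5.73) and of Abi1, an actin regulator (6.22 and 6.00). WT-only DHSs were found on every autosome and on chromosome X, at 4.19% (chromosome 11) to 6.16% (chromosome 6) of the merged regions of a chromosome, and none of the 41 merged regions on chromosome Y was WT-only.

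**Figure D3:**
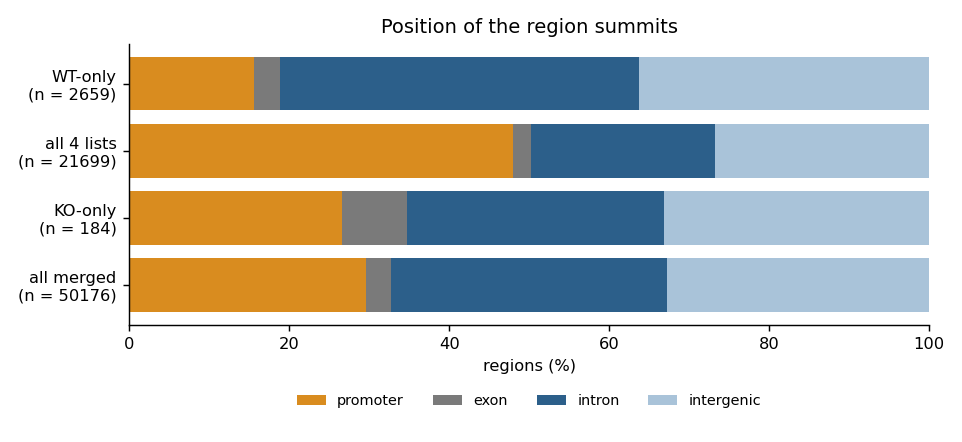
Percentage of region summits (x axis) at promoters, in exons, in introns and between genes, for the WT-only, all-4-list, KO-only and all merged regions. Promoters take 15.6% of the WT-only DHSs and 48.0% of the regions in all 4 lists.

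The SMAD core was present in a larger share of the distal WT-only DHSs than of distal regions that had a KO peak, and in a share close to that of regions in WT TGF-β + IL-4 alone. Within 100 bp of the summit it was found in 1085 of 2244 distal WT-only DHSs (48.4%, 95% Wilson interval 46.3 to 50.4). Among the weaker distal regions that did have a KO peak (both WT lists, mean rank over 50) the share was 43.6% (42.4 to 44.7), in all 4 lists 43.2% (42.3 to 44.1) and in all merged regions 42.5%. The share was 53.7% (47.0 to 60.2) in the 216 distal WT-only DHSs of mean rank up to 50 and 47.8% in the 2028 weaker ones. The weaker regions with a KO peak were still stronger than these, with a median mean rank of 65.0 against 73.7. In steps of 10 rank points from 50 to 100 the share was 44.3%, 48.0%, 48.0%, 46.9% and 53.3% in WT-only DHSs and 43.5%, 44.8%, 43.1%, 40.5% and 46.4% in regions with a KO peak, higher in WT-only DHSs in each of the 5 steps but with overlapping 95% intervals in each. Regions in WT TGF-β + IL-4 alone held it in 49.2% and regions in WT control alone in 38.6%. The full palindrome was rare, in 13 distal WT-only DHSs (0.579%, 0.339 to 0.989), 19 of the 7007 weaker regions with a KO peak (0.271%, 0.174 to 0.423, an overlapping interval) and 19 of 11292 distal regions in all 4 lists (0.168%, 0.108 to 0.263). In regions of WT TGF-β + IL-4 alone it was in 0.557%. The intervals cover counting error only, regions of 1 library are not replicates, and no test was made between the sets. The distal WT-only DHSs had a lower median GC content, 47.8% against 50.2% in both comparison sets, and its part in these shares was not tested.

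Around the summit the SMAD core was denser in the WT-only DHSs. It occurred at 3.65 matches per kb within 20 bp of the summit and at 3.97 from 20 to 40 bp, against 2.85 and 3.01 in the weaker regions with a KO peak. From 180 to 200 bp the values were 2.94 and 2.80. The STAT letters TTCNNNGAA had the same kind of profile, with 0.735 matches per kb from 20 to 40 bp in WT-only DHSs against 0.457. The share of distal regions with STAT letters was 10.4% (9.19 to 11.7) in WT-only DHSs and 7.88% (7.27 to 8.53) in the weaker regions with a KO peak. That with RUNX letters was 27.5% (25.6 to 29.3) and 24.3% (23.3 to 25.3). From rank 50 to 60 neither share was higher in WT-only DHSs, with STAT at 7.33% against 8.87% and RUNX at 24.05% against 24.25%. In each step from rank 60 to 100 both were higher in WT-only DHSs. Regions in WT control alone and in WT TGF-β + IL-4 alone held STAT letters in 9.17% and 9.11%. They held RUNX letters in 24.3% and 26.8%. Regions in all 4 lists held RUNX letters in 25.3% (24.5 to 26.1), an interval that overlaps that of WT-only DHSs.

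AP-1 letters, the sites of the Fos and Jun proteins induced by T cell receptor signals, were found in 13.7% of the distal WT-only DHSs (12.3 to 15.2), 15.5% of the weaker regions with a KO peak (14.6 to 16.3) and 18.8% of those in all 4 lists (18.1 to 19.5). From rank 80 to 90 the AP-1 shares were 12.9% in both WT-only DHSs and regions with a KO peak, and from 90 to 100 they were 12.3% and 11.8%, so the lower AP-1 share was not seen among the weakest regions. The share differed widely between the WT lists, with 27.2% of regions in WT control alone and 6.43% of those in WT TGF-β + IL-4 alone. The ETS letters AGGAAGT were in 14.1% of the distal WT-only DHSs (12.7 to 15.6) and 15.9% of the weaker regions with a KO peak (15.1 to 16.8). The CTCF core was in 14.4% (13 to 15.9) and 14.9% (14.1 to 15.8), and in 25.9% (20.5 to 32.2) of the 216 stronger distal WT-only DHSs, where regions of mean rank to 50 with a KO peak had 18.9% (18.1 to 19.7). The promoter-type KLF/SP letters GGGCGGG were in 3.88% of the distal WT-only DHSs and 4.72% of all distal regions.

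**Figure D4:**
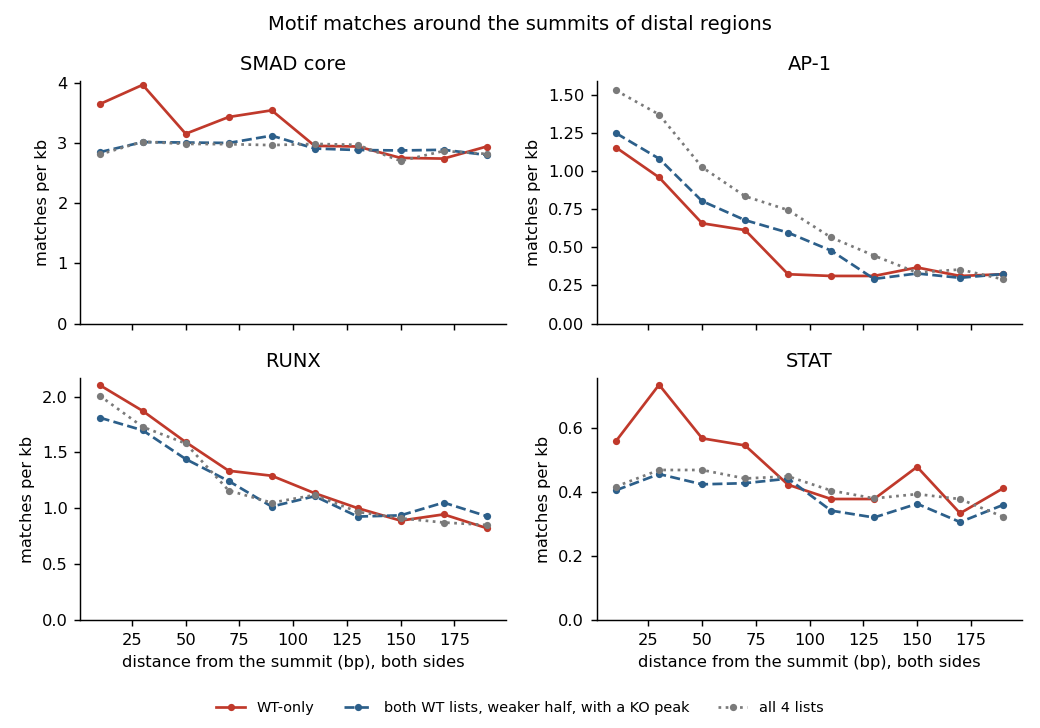
Matches per kb (y axis) to the SMAD core, AP-1, RUNX and STAT letters by distance from the summit in steps of 20 bp (x axis, both sides pooled), in distal WT-only DHSs, in distal regions of both WT lists of mean rank over 50 with a KO peak, and in distal regions of all 4 lists. The SMAD core line of the WT-only DHSs reaches 3.97 close to the summit and meets the other lines beyond 100 bp, while its AP-1 line lies at or under both others within 120 bp.

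The shares were compared once more at equal list length, where WT-only and KO-only sets were of like size. The SMAD core was in 47.2% (43.5 to 51) of the distal WT-only and 42.6% (38.6 to 46.7) of the distal KO-only regions, with overlapping intervals. RUNX letters were in 28.5% (25.2 to 32.0) and 20.8% (17.7 to 24.4), STAT letters in 10.2% (8.12 to 12.7) and 6.01% (4.33 to 8.28), and the CTCF core in 15.7% (13.2 to 18.7) and 22.3% (19 to 25.9). AP-1 letters were in 16.9% (14.3 to 20.0) and 13.6% (11.0 to 16.7), so the lower AP-1 share of WT-only DHSs was not seen against this set. Of these 757 KO-only regions 672 were in full lists of both genotypes, as were 320 of the 763 WT-only regions (41.9%).

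The WT-only DHSs were nearest to 2077 protein-coding genes, by distance from the summit to a start site, and 399 of these genes were nearest to at least 2. Foxp1, a forkhead factor of T cell quiescence, Sgms1, a sphingomyelin synthase, and St8sia1, a ganglioside sialyltransferase, were each nearest to 7. Icos, an inducible costimulatory receptor, Tgfbr2, Mllt3, Myc and Prkcq, the protein kinase C of T cell receptor signalling, were each nearest to 6. Tbl1xr1 and Dock10 were nearest to 5 each. These were also genes with many merged regions, 24 for St8sia1, 28 for Icos, 46 for Tgfbr2, 69 for Foxp1 and 82 for Myc, and the WT-only DHSs of a gene should be read against that number.

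The largest groupings of WT-only DHSs within 250 kb, chosen after the values were seen, held 9 each. At the costimulatory locus of Ctla4 and Icos 9 WT-only DHSs lay within 241074 bp (chr1:60917633-61158706), among 40 merged regions of which 10 were in all 4 lists. Ctla4, the inhibitory receptor of activated T cells, was nearest to 4 WT-only DHSs and Icos to 6. The strongest of them lay 90437 bp downstream of the Icos start (chr1:61124950-61125342), with fold enrichments of 7.56 and 5.73. The other was shorter and lay at St8sia1 and Etnk1 (chr6:142832934-143017263), where 9 of 21 merged regions were WT-only. At Tgfbr2 and Gadl1 (chr9:115927806-116173141) 7 of 32 merged regions were WT-only.

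The TGF-β receptors, Smads and their feedback regulators had WT-only DHSs at 12 of 28 genes, 23 DHSs in all. These were 8.65% of the 266 merged regions nearest to the list's genes, beside 5.30% over all merged regions. Smurf1, a ubiquitin ligase that targets the receptor, had the strongest, in an intron (chr5:145687164-145687501, fold enrichments 6.35 and 5.23). Pmepa1, a Smad-sequestering feedback gene, had 1 in an intron (chr2:173090280-173090677, 5.40 and 6.05). Tgfbr2 had 6, of which the strongest lay 88758 bp upstream (7.02 and 4.22). Lrrc32, which holds latent TGF-β at the cell surface, had 1 lying 13005 bp upstream (5.63 and 4.83). Smad7, the inhibitory Smad, was nearest to 4, all of mean rank between 77.6 and 84.8. Tgfbr1 itself had none within its gene body or 50 kb of it, and its promoter DHS was called in all 4 lists. No WT-only DHS lay within 50 kb of Il9, where 3 merged regions were in all 4 lists.

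Genes that TGF-β induces in T cells had WT-only DHSs at 10 of 21 genes, with 17 DHSs, or 9.77% of 174 merged regions. Itgae, the αE integrin chain, had 2, one 6055 bp upstream of its start (chr11:72897837-72898207, fold enrichments 5.14 and 5.79) and one 4283 bp inside the gene (chr11:72908031-72908488, 4.83 and 5.79). The T helper cytokines and lineage factors had 25 DHSs at 16 of 36 genes, 5.83% of 429 merged regions, led by Batf3 (5.13 and 6.19), Rora (5.03 and 6.20) and Runx1 (5.44 and 5.36). STATs and cytokine receptors had 15 at 11 of 32 genes (5.45% of 275), led by Stat3 (4.98 and 5.35) and Il1r2 (4.41 and 5.25). Naive state and homing genes had 21 at 10 of 24 genes (5.13% of 409), led by Itga4 (4.55 and 7.0). Activation and costimulation genes had 28 at 12 of 37 (6.24% of 449), led by Icos. Clock genes had 5 at 4 of 17 genes (5.88% of 85), led by Rora and Arntl. Cell cycle genes had 13 at 7 of 26 (5.86% of 222), led by Ccne1 (6.09 and 4.98) and Rb1 (5.24 and 5.12). The lists share genes, and the shares of the last 6 lists lay between 5.13% and 6.24%, beside 5.30% over all merged regions.

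RNA-seq gave an independent measure of the genes nearest to WT-only DHSs, since it was not used to choose them. Tgfbr1 itself was at 3.02, 8.91 and 20.7 RPKM (lowest, median and highest of 12 WT libraries) and at 2.32, 3.11 and 5.18 RPKM in the 12 KO libraries. The groups overlapped, with 6 WT libraries above every KO library. The headings of the 24 columns are in doubt. Columns headed with 1 culture differed widely, in both genotypes (Tgfbr1 at 3.02, 13.9 and 3.69 RPKM in those headed WT control 1, 2 and 3, and Gata3 at 8.51, 7.09 and 58.8 in those headed KO control 1, 2 and 3). In column order such values recurred every 4 columns, while the headed culture changes every 3, so the headed mouse is as doubtful as the culture. No column was reassigned, and only genotypes were compared, over 3 means per genotype of the 4 columns headed with 1 mouse. These means may mix animals, so their standard errors and p-values may not measure the spread between mice. The fit over the 24 libraries as separate samples uses no mouse number but counts libraries of 1 animal as independent. It is therefore given beside each SE and adjusted p printed for a gene and beside the main count of calls, not beside every log2 difference. Of the 98 named genes tested, 1 lost its call in that fit. T cell markers summed to between 1308 and 1752 RPKM in every library, B cell markers to 11.2 to 33.8 RPKM in WT and 8.14 to 26.3 in KO, and myeloid markers to 2.83 to 18.5 in WT and 0.261 to 10.2 in KO. NK cell markers summed to 7.96 to 113 RPKM in WT and 10.7 to 80.4 in KO. Most of that sum was Gzma, while Klrd1 was at 1.59 to 3.69 in WT and 0.721 to 1.92 in KO. CD8 T cell markers summed to 16.6 to 36.3 in WT and 14.3 to 28.3 in KO. Most of this sum was Cd8b1, at 11.0 to 30.4 in WT and 12.8 to 25.1 in KO. Cd8a was at 5.04 to 8.87 in WT and 1.14 to 3.85 in KO, with no overlap. The part of these other cells in the values of single genes was not tested. In bulk RNA, fewer expressing cells and less RNA per cell cannot be told apart.

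The nearest genes were called lower in KO, and also higher, in larger shares than all genes tested. In both sets more genes were lower than higher. Of the 2077 nearest genes 1322 had a mean of at least 1 RPKM and were tested, and 101 (7.64%) were lower and 28 (2.12%) higher in KO at an adjusted p under 0.01 and a fold over 1.5 (limma on log2(RPKM + 1)). Over all 9726 genes tested, 3.98% were lower and 1.20% were higher. With the 24 libraries as separate samples 93 of the nearest genes were lower and 28 higher, beside 3.68% and 1.16% of all genes. The nearest genes of regions in all 4 lists were lower in 3.47% and higher in 1.12% of 7839 tested, those of regions in WT TGF-β + IL-4 alone lower in 8.35% of 1257, and those of regions in WT control alone lower in 5.65% of 3008. The median log2 fold change of the nearest genes was −0.02, and that of all genes tested 0.02. The change was below 0 in 54.4% of the nearest genes and in 46.4% of all genes tested. A median near 0 does not show that the single changes were small. The share lower in KO was 11.7% of 197 genes with a WT-only DHS within 1 kb of the start, 7.77% from 1 to 10 kb, 7.67% from 10 to 50 kb and 7.28% beyond 50 kb.

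Genes with many merged regions were called more often whether or not a WT-only DHS was among them. Among genes nearest to 1 to 3 merged regions, 6.41% of 281 with a WT-only DHS and 2.61% of 4979 without one were lower in KO. The shares were 5.94% and 4.49% at 4 to 7 merged regions, 9.56% and 6.21% at 8 to 15, and 9.28% of 237 and 9.86% of 71 at 16 or more. At equal list length the nearest genes of WT-only regions were lower in KO in 8.49% of 471 and those of KO-only regions in 5.16% of 407. These shares are descriptions, with no test of the differences between sets.

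Among the nearest genes lower in KO, Vim had the largest change, and Nt5e and H2-Ab1 were among the 10 of largest change. Vim, the intermediate filament of mesenchymal and activated cells, was at 11.7, 33.6 and 77.7 RPKM in WT (lowest, median and highest) and 3.08, 6.32 and 9.44 in KO. The groups did not overlap, and the difference was −2.12 ± 0.0416 on the log2(RPKM + 1) scale (SE, adjusted p = 2.02e-09, limma), with an SE of 0.296 and an adjusted p of 4.74e-06 over the 24 libraries. Its DHS lay in an exon of Gm9875, 13985 bp upstream of the Vim start. Nt5e, the ecto-nucleotidase CD73, was at 0.717, 9.78 and 21.2 in WT and 0.361, 0.868 and 2.31 in KO (log2 difference −1.79). Its DHS lay in an intron (mean rank 89.4). H2-Ab1, a class II MHC chain of antigen-presenting cells, fell by 1.40 on the log2 scale, from a WT median of 39.8 to a KO median of 13.3 RPKM. The part of the B cell and myeloid marker levels given above in that value was not tested.

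Skil and Pmepa1 fell in KO with no overlap between genotypes. Skil, a repressor of Smad complexes, was at 3.92, 7.84 and 12.2 RPKM in WT and 1.55, 1.79 and 2.34 in KO (log2 difference −1.59 ± 0.0515, adjusted p = 2.64e-08, and over the 24 libraries SE 0.147 and adjusted p = 1.76e-08). Its DHS lay 10027 bp upstream (chr3:30983806-30984346). Pmepa1 was at 2.25, 4.17 and 7.57 RPKM in WT and 0.541, 0.700 and 0.983 in KO (log2 difference −1.58 ± 0.050, adjusted p = 2.21e-08, and over the 24 libraries SE 0.168 and adjusted p = 1.29e-07). Ski fell by 1.01 and Lrrc32 by 0.98 on the same scale. Over the receptor and Smad list 6 of 15 tested genes were lower and 0 higher in KO, and of the 8 tested with a WT-only DHS these 4 were lower. The list was chosen with earlier results of these data known. Tgfbr2, with its 6 DHSs, was at a median of 13 RPKM in WT and 9.08 in KO (log2 difference −0.54), under the fold limit. Smad7 had a mean under 1 RPKM and was not tested, at 0.454, 1.22 and 2.26 RPKM in WT and 0.236, 0.357 and 0.667 in KO.

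Of the 18 tested genes that TGF-β induces in T cells, 14 were lower and 1 higher in KO, and among the 9 with a WT-only DHS 6 were lower and 1 higher. Over all genes tested 3.98% were lower and 1.20% higher. This list was also chosen with earlier results of these data known, so its counts are not independent support. Itgae was at 0.196, 2.21 and 8.76 RPKM in WT and 0.0307, 0.147 and 0.358 in KO (log2 difference −1.38 ± 0.0517, adjusted p = 7.27e-08, and over the 24 libraries SE 0.351 and adjusted p = 0.00247), and 10 WT libraries lay above every KO library. Rgs1, a regulator of chemokine signalling, fell by 0.89. Ctla4, with 4 DHSs, was at a median of 11.2 RPKM in WT and 11.7 in KO (log2 difference 0.10) and did not pass. Id3, an inhibitor of E proteins with a WT-only DHS near its start, was higher in KO, at 19.6, 33.9 and 61.3 RPKM in WT and 38.3, 70.8 and 115 in KO (log2 difference 0.95). 

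In the other lists the called genes with a WT-only DHS were mostly lower in KO, but so were the called genes of the lists as a whole. Runx3 and Runx1, factors that partner with Smads, fell by 0.68 and 0.69, and Runx3 was below every WT library in all 12 KO libraries. Ifng, the Th1 cytokine, fell by 1.08 and Batf3 by 0.77, though Batf3 did not pass over the 24 libraries (adjusted p = 0.0617). Over all T helper cytokines and lineage factors 14 of 27 tested genes were lower and 2 higher, and of the 11 with a WT-only DHS 5 were lower. Among STATs and receptors Stat3 (−0.59), Stat5b (−0.76), Il6ra (−1.04) and Il1r2 (−0.63) were lower and Stat4 (1.01) was higher, of 9 tested with a WT-only DHS. Over that whole list 11 of 27 tested genes were lower and 1 higher. Of 9 naive state and homing genes with a WT-only DHS, Foxo1 (−0.64), Ccr4 (−1.09) and Itgae were lower and Gpr183 (0.77) higher, while over their whole list 6 of 22 were lower and 1 higher. Of 12 activation genes with a WT-only DHS only Dusp5, a phosphatase of ERK, was called, lower by 0.83, and over all 34 tested activation genes 5 were lower and 1 higher. Icos was at a median of 52.2 RPKM in WT and 37.8 in KO (log2 difference −0.42), under the fold limit. None of 3 clock genes and 7 cell cycle genes with a WT-only DHS was called by limma, and Arntl had the largest difference among the clock genes (−0.57, under the fold limit).

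The remaining genes of largest fall were Apol9b (−1.58), Apol9a (−1.40) and Cyth4 (−1.41). Cyth4, an exchange factor for ARF GTPases with 2 WT-only DHSs, one of them at its promoter, was at 13.5, 29.5 and 43.5 RPKM in WT and 6.85, 9.61 and 11.3 in KO, with no overlap. Apol9a and Apol9b are close paralogs, so their reads may be split between them and their values are uncertain.

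The 28 nearest genes that were higher in KO included receptors and adhesion molecules of lymphocytes. Tnfsf8, the CD30 ligand, was at 5.27, 12.9 and 30.4 RPKM in WT and 26.7, 34.1 and 49.1 in KO (log2 difference 1.37 ± 0.0288, adjusted p = 2.43e-09, and over the 24 libraries SE 0.250 and adjusted p = 0.000105). Its DHS lay 8085 bp upstream (chr4:63530344-63530655). Rcsd1, a regulator of actin capping, was at 7.68, 9.10 and 12.3 RPKM in WT and 22.4, 24.9 and 29.1 in KO, with no overlap (1.34 ± 0.0420, adjusted p = 2.18e-08, and over the 24 libraries SE 0.0721 and adjusted p = 8.59e-13). Slamf6, a SLAM family receptor with 2 WT-only DHSs, was at 8.55, 16.4 and 22.6 in WT and 29.4, 36.7 and 40.9 in KO, again with no overlap (1.20). Crtam, an adhesion receptor of cytotoxic T cells with a WT-only DHS at its promoter (chr9:40812540-40813066, mean rank 71.0), was at 18.4, 34.2 and 61.6 in WT and 62.3, 75.8 and 94.1 in KO (1.18). Ms4a4b (1.16), Lypd6b (1.12), Stat4 (1.01), Fhl2 (0.97), Id3 and Ms4a6b (0.92) followed. A WT-only DHS was thus nearest to genes that were lower in KO and to genes that were higher.

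**Figure D5:**
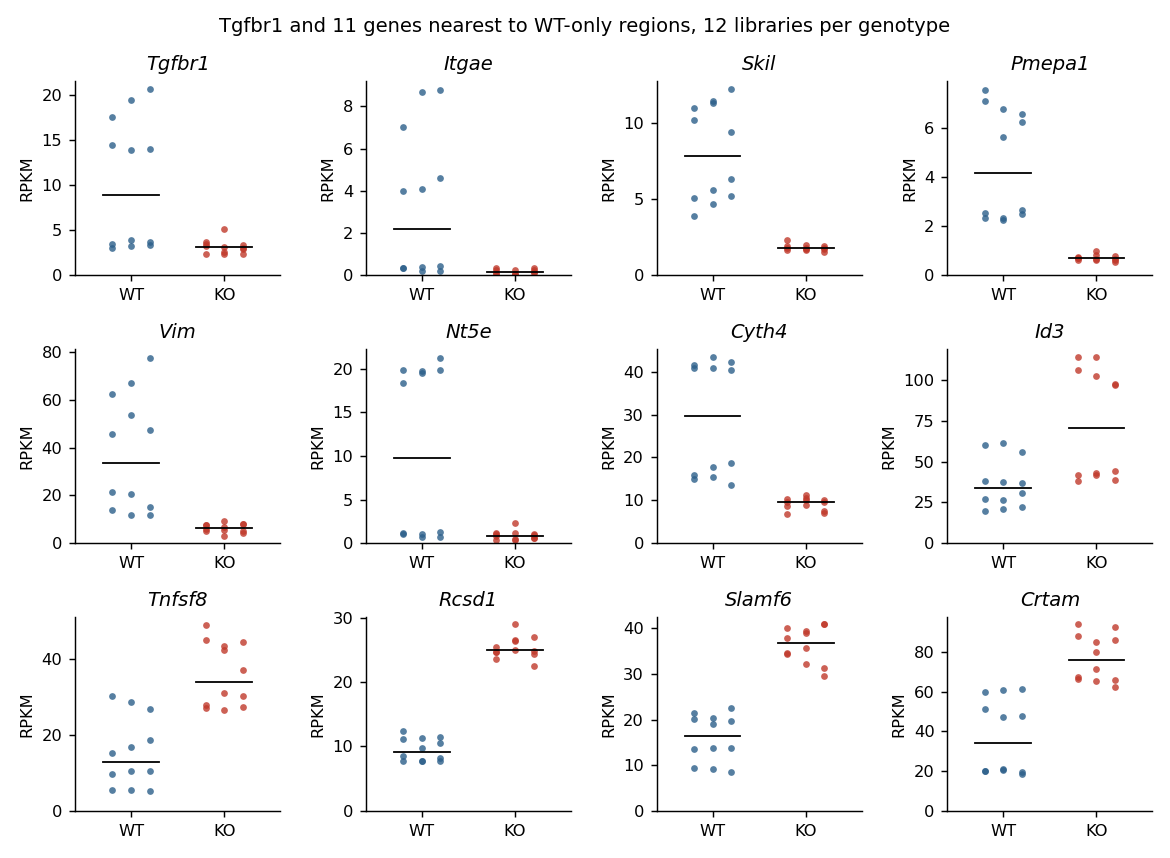
RPKM (y axis, linear, from 0) of Tgfbr1 and of 11 genes nearest to WT-only DHSs in the 12 WT and 12 KO libraries, each point 1 library, headed mice 1 to 3 from left to right within a genotype, lines at the median. Skil, Pmepa1, Vim, Cyth4, Rcsd1, Slamf6 and Crtam do not overlap between genotypes, and Tgfbr1, Itgae, Nt5e, Id3 and Tnfsf8 do.

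The genes of the strongest WT-only DHSs were mostly not called. Itgb2, whose intron held the first, was lower in KO, with a WT median of 154 and a KO median of 96.4 RPKM (log2 difference −0.64). Ppp2r5e was at a median of 6.07 RPKM in WT and 5.83 in KO (−0.08), Pttg1ip at 23.3 and 17.6 (−0.37), Rngtt at 12.7 and 12.9 (0.06) and Zfp772 at 1.59 and 1.61 (0.02), and none of these passed the test and the fold limit. B230118H07Rik, Cx3cr1, Fam102b, Gm1966, Sh3bgrl2 and Lrrc9 had a mean under 1 RPKM and were not tested. Of the nearest genes of the 232 WT-only DHSs of mean rank up to 50, 6.47% of 139 tested were lower in KO, against 8.43% of 712 for those of mean rank over 75.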

How the data were processed

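DNase-seq covered 4 libraries, 1 per condition, and RNA-seq 24 libraries. The submitters' processing notes name Bowtie2, MACS2 and mm9, and versions are not given in the sources used here. The authors discarded poorly mapped and duplicate reads after alignment, and narrow peaks were called separately for every library. The deposited peak lists give a fold enrichment over local background (a ratio), and the −log10 of p and of q, per the file headers and values; the deposited score was not used here. The lists hold no read counts, so depth is unknown. The authors deposited RNA-seq as RPKM, reads normalised for the size of gene and library, for 24089 genes.

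Lists were merged in Python 3.11.15 with pandas 2.3.3. Strength was the percentile rank by fold enrichment. Positions came from GENCODE M1 on mm9, and 16 motifs were searched within 100 bp of the summit on both strands. RPKM were compared with limma 3.58.1 (R 4.3.3, with a trend) on log2(RPKM + 1) of 3 means per genotype, each over the 4 columns headed with 1 mouse, for genes of mean RPKM at least 1, with Benjamini-Hochberg adjustment; calls needed an adjusted p under 0.01 and a fold over 1.5, the study's thresholds. On this scale the fold of low genes is understated. The fit was tested on simulated data drawn as independent values for each headed mouse. That test therefore cannot show whether the standard errors hold if the means mix animals.

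Intervals are 95% Wilson intervals and cover counting error only. Named regions and genes were the 12 strongest WT-only DHSs and the first 6 promoter and distal ones, those within 50 kb of Tgfbr1 and Il9, up to 4 per gene list, the 10 genes nearest to the most DHSs, up to 10 called genes of largest fold in each direction, and 3 regions on either side of the selection rule. The regions, the 8 gene lists and the tests were chosen with earlier results of these data known. Same-numbered mice of the 2 genotypes are different animals by their labels, the headed numbers are in doubt, and their deviations from the group means correlated at 0.07, −0.02 and −0.24, so the numbers do not pair samples. A gene that the naming rule takes in is not reported here.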

Additional observations from a re-analysis of the deposited data

How the results depend on the processing

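The number of WT-only DHSs was 2650 with an overlap of 50% of each peak, 2809 with summits within 100 bp, 2579 with a −log10 q of at least 5 in all lists and 2384 without those within 500 bp of a KO peak. It was 1596 with that q limit in the WT lists only and 763 at equal list length, where the KO-only regions numbered 757 in place of 184. The promoter share was 10.8% with a window of 500 bp and 22.9% with 2500 bp. The distal SMAD core share stayed between 47.2% and 48.7% under every one of these member rules. With a window of 100 bp it was 29.5% in WT-only and 24.1% in all distal regions, and over whole regions 64.0% and 60.5%.

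For the nearest genes, 129 were called in all. The replicate block called 129 (101 lower and 28 higher), and so did the mouse as a random effect. Both use the headed mouse numbers, so they are no check on the doubt about these. The 24 libraries as separate samples called 93 lower and 28 higher. A mean RPKM of at least 5 called 85 (63 lower), with fewer genes tested. An adjusted p under 0.05 with no fold limit called 820 (452 lower, 368 higher), or 34.2% and 27.8% of those tested, beside 26.0% and 31.8% of all genes, where more were higher than lower. The columns headed control alone called 2 (2 lower, 0 higher) and those headed TGF-β + IL-4 alone called 0 (0 lower, 0 higher) by limma, with 166 lower and 151 higher, and 245 lower and 106 higher, at an unadjusted p under 0.05. Both together called 85 lower and 13 higher, beside 3.21% and 0.721% of all genes. The cause was not tested. Leaving out 1 headed mouse gave 124 to 135 calls, 97 to 109 lower and 25 to 28 higher. No named gene changed direction past the threshold in any of 18 settings, and 89 of 1731 values lost and 50 gained a call. Of the 38 named genes called in the main fit, 0 stayed called in every setting. With the columns headed TGF-β + IL-4 alone 38 named genes lost their call, and with those headed control alone 36 did. With 1 DNase-seq library per condition and unknown depth, a weak peak missing from a list cannot be told apart from a closed site.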
